A study of Chlamydomonas reinhardtii with 6 samples.

Results

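Protein breakdown genes of the unicellular green alga Chlamydomonas reinhardtii were followed through 1 h of UV-B. The genes described are the 65 entries of the authors' deposited table of changed genes whose functional category begins with protein degradation, out of 2596 genes in that table and 13452 in the table of normalised values. Every gene in the authors' deposited table has a change of at least 2-fold, so the same comparison that is described here chose the members, and their direction and size are given as a description with no test. The labels describe 6 independent stationary cultures of strain CC-125 (137c mt+) in acetate medium. For 1 h all of them received weak visible light, at 3.6 µmol photons per square metre and second, and stood under narrowband lamps giving 0.07 mW/cm2 of UV-B. The UV-B group, 3 cultures, was covered by a cut-off filter of 311 nm that let the UV-B through, and the no UV-B group, also 3 cultures, by one of 360 nm that held it back, so the groups also differ in light between those wavelengths. RNA came from whole cultures, so a change in some cells and a change in every cell cannot be told apart. Values are normalised read counts scaled to library size, without correction for gene length, and are listed for replicates 1, 2 and 3 in that order. Log2 fold changes compare UV-B with no UV-B on the scale log2(value + 1), a scale on which low genes appear to change less than they do, and their SE is limma's.

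Cells remove proteins along several routes. In the ubiquitin route an E1 enzyme activates the small protein ubiquitin, an E2 enzyme carries it, and an E3 ligase chooses the target. A chain of ubiquitin marks the target for the proteasome, a barrel-shaped protease with a ring of AAA-type ATPases at its gate, and ubiquitin proteases take the mark off again. Proteases of bacterial descent, such as FtsH, Deg and the C-terminal processing peptidases, work inside plastids and mitochondria, and papain-like and legumain-like cysteine proteases work largely in vacuoles. In plants the UV-B receptor UVR8 acts through the E3 ligase COP1, and FtsH removes light-damaged D1 protein from photosystem II. The category names of the table are the basis for the classes used here. They come with a description for 17 members and with domain names for 49, while 12 members have neither, so for those the class rests on the category alone.

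Of the 65 genes, 32 had higher values under UV-B and 33 had lower values, where 50.03% of the 13415 genes tested had higher values. At an adjusted p under 0.05, limma called 29.5% of the genes tested higher and 29.6% lower. In the whole table of changed genes 1301 were listed as induced and 1295 as repressed, so the members were divided much like the table they come from. All 65 members passed the filter on low values. The ranges of both groups were separate in 65 of 65 members, which held for 63.2% of the genes tested. An adjusted p under 0.05 was reached by 65 of 65 members in the limma fit, where 59.0% of the genes tested reached it, and by 65 of 65 with edgeR, where 59.2% did. Since the same contrast chose the members, these counts carry no further information. The division differed between classes, most of them small. Members filed as cysteine proteases were lower in 9 of 9 cases, and ubiquitin ligase members filed under RING in 5 of 5, while g6281, a gene outside the members that has RING as its last category, was higher. The metalloproteases were higher in 9 of 13 cases, and members without a named subclass in 7 of 11, where 50.1% of all listed genes were induced. Neither split was tested. Serine proteases were divided, with 3 higher and 3 lower. The median log2 fold change was -1.25 for cysteine proteases, 1.10 for metalloproteases and -0.79 for ubiquitin ligases, and 0.00037 over all genes tested. These are unlike measures, because each member was listed for a change of at least 2-fold. Unchanged genes of a class are absent, so a class median gives no shift of the class as a whole.

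**Figure D1:**
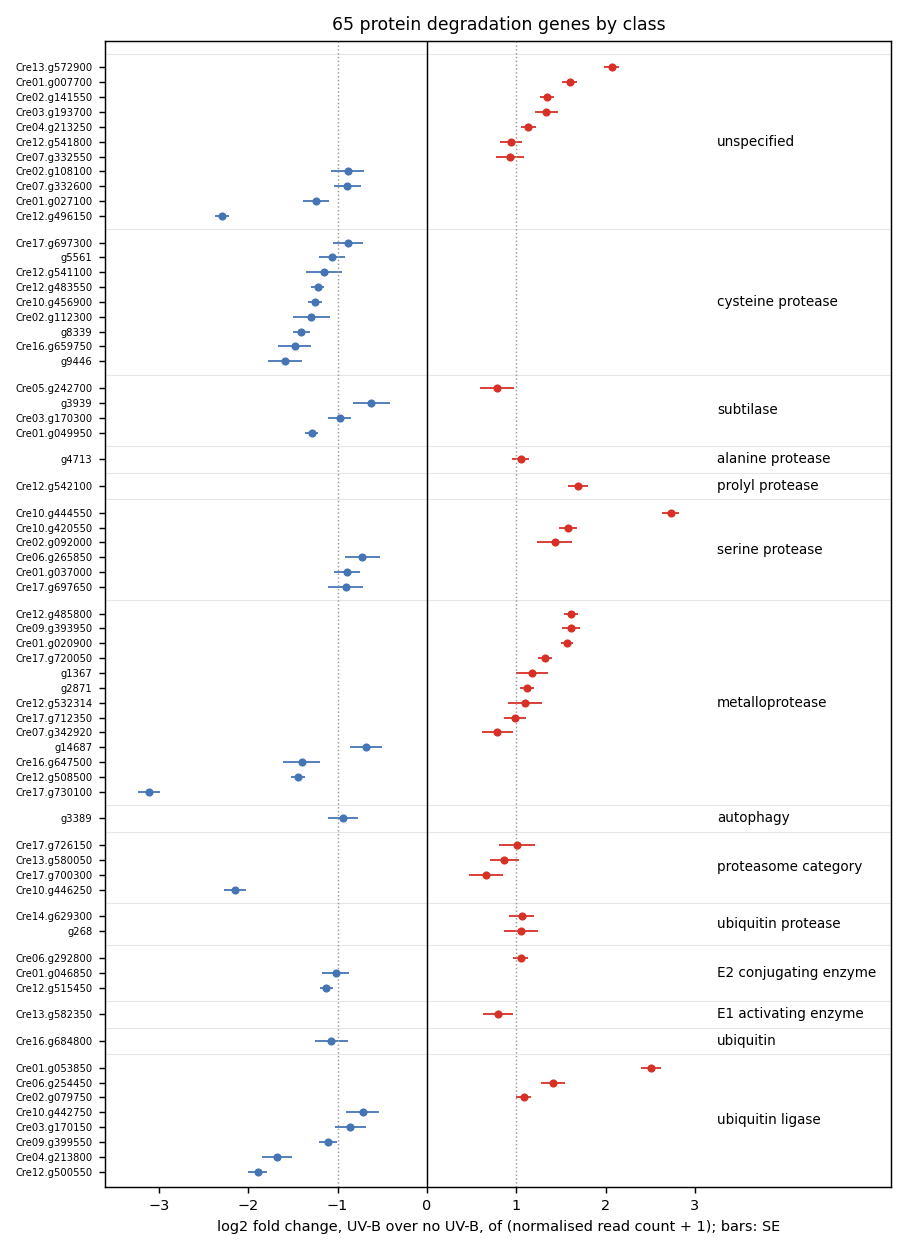
Log2 fold change of each of the 65 genes (horizontal axis, UV-B over no UV-B on the log2(value + 1) scale, bars are limma's SE, n = 3 per group), grouped by class on the vertical axis, with dotted lines at a 2-fold change. The 9 genes filed as cysteine proteases lie to the left of 0, and 9 of the 13 metalloprotease genes lie to the right.

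The ubiquitin ligase class held 8 genes, 3 higher and 5 lower under UV-B. The largest rise was in Cre01.g053850, an E3 ligase gene that the table also places under light signalling. It had values of 10.6, 12.7 and 8.40 in the no UV-B cultures and 67.5, 63.3 and 61.8 in the UV-B cultures. The groups were separate, as in 65 of 65 members and 63.2% of the genes tested. The ratio of the means was 6.07, a log2 fold change of 2.51 ± 0.11. The other higher genes are both placed with F-box proteins, the parts of SCF ligases that bind the target. Cre06.g254450 went from 5.05, 5.81 and 4.57 to 16.7, 14.7 and 14.5, a log2 fold change of 1.41 ± 0.14. Cre02.g079750 went from 26.8, 30.1 and 27.8 to 62.8, 59.3 and 60.7, a log2 fold change of 1.09 ± 0.08. The domain names of Cre02.g079750 are those of a histidine kinase and response regulator, proteins of phosphorelay signalling, and no F-box domain is among them.

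In RING ligases a zinc-binding domain brings the E2 enzyme to the target. The 5 members filed under RING, of which Cre12.g500550 alone has a RING-type name (C3HC4) among its domains, had log2 fold changes from -1.89 to -0.72. The largest fall was in Cre12.g500550, with a von Willebrand A domain next to that domain in its annotation. Its values were 37.8, 44.2 and 41.6 without UV-B and 9.42, 11.9 and 9.86 with UV-B, and the mean was 3.97-fold lower, a log2 fold change of -1.89 ± 0.11. Cre04.g213800 followed, with 9.54, 7.79 and 9.23 and then 2.07, 1.65 and 2.57, a log2 fold change of -1.68 ± 0.17. In both genes the UV-B cultures lay below each of the no UV-B cultures by more than the spread of either group. Separate groups held for 65 of 65 members and 63.2% of the genes tested. The 2 members annotated as copines, calcium-dependent membrane-binding proteins, were lower by a smaller step. Cre09.g399550 had 35.8, 32.3 and 31.3 without UV-B and 15.1, 13.6 and 15.9 with it, a log2 fold change of -1.11 ± 0.10. For Cre03.g170150 the values were 4.61, 5.81 and 5.74 and 2.45, 2.99 and 2.15, a log2 fold change of -0.86 ± 0.17. Cre10.g442750, with neither description nor domain names, had the smallest fall, from 3.4, 2.77 and 3.33 to 1.51, 1.34 and 1.74.

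Members filed as E1 and E2 enzymes moved in both directions. The single member filed as E1, Cre13.g582350, carries the domain of the SUMO-activating subunit Uba2, which activates SUMO, a relative of ubiquitin. It had 2.08, 2.38 and 2.25 without UV-B and 4.52, 4.64 and 4.72 with UV-B, a log2 fold change of 0.80 ± 0.17. Of the 3 E2 genes, which carry the UBCc domain of ubiquitin-conjugating enzymes, 1 was higher and 2 were lower. Cre06.g292800 went from 28.4, 29.3 and 29.6 to 64.8, 57.3 and 62.0, a log2 fold change of 1.05 ± 0.08. Cre12.g515450, the E2 gene with the most reads, went the other way, from 133, 141 and 138 to 60.6, 59.1 and 67.3, a log2 fold change of -1.13 ± 0.07. Cre01.g046850 was also lower, with 13.3, 13.1 and 11.1 without UV-B and 5.84, 7.01 and 4.31 under UV-B. The summed level of the 3 E2 genes was 179 ± 4.05 without UV-B and 129 ± 5.31 with UV-B (mean ± SD, n = 3 per group), so the fall of Cre12.g515450 outweighed the rise of Cre06.g292800 in reads.

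Both genes classed as ubiquitin proteases, the enzymes that cut ubiquitin from its targets, were higher. Cre14.g629300 had 4.83, 4.35 and 4.82 without UV-B and 9.99, 10.9 and 11.6 with UV-B, a log2 fold change of 1.06 ± 0.14. The values of g268 were 1.32, 2.64 and 1.497 and 5.28, 4.23 and 4.72, a log2 fold change of 1.05 ± 0.19. A different family of ubiquitin-cleaving enzymes, the OTU family, is filed by the table under cysteine proteases, and its 2 members there were lower. Their values are given with that class. The gene filed under ubiquitin itself, Cre16.g684800, has a leucine-rich repeat family name (COG4886) as its domain and went from 6.69, 5.28 and 6.65 to 2.36, 1.65 and 3.48, a log2 fold change of -1.07 ± 0.19.

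**Figure D2:**
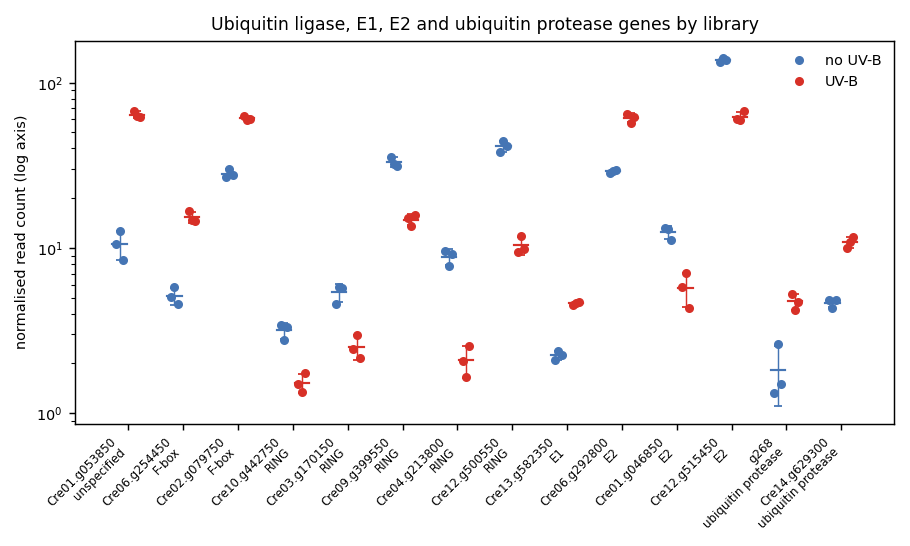
Normalised read count (vertical log axis) of the ubiquitin ligase, E1, E2 and ubiquitin protease genes in each library, with 1 point per culture and bars for the mean ± SD of 3 cultures per group. Cre01.g053850 sits between 61.8 and 67.5 under UV-B, above a highest value of 12.7 without UV-B, and the 5 genes filed under RING sit lower under UV-B.

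The proteasome category held 4 genes, and the annotation of each gives AAA-type ATPase domains, a large superfamily to which the proteasome's gate ATPases also belong. Cre10.g446250 was the one lower member, with 25.3, 25.9 and 24.2 without UV-B and 4.81, 4.74 and 5.13 with UV-B. Its 3 UV-B values lie close together, and the mean was 5.13-fold lower, a log2 fold change of -2.15 ± 0.12. The 3 higher members had few reads. Cre17.g726150 went from 0.329, 0.924 and 0.333 to 2.54, 1.86 and 1.74, or 14 reads in all without UV-B and 66 in all with it. The ratio of its pooled reads, relative to effective library size, was 4.18 (exact 95% interval 2.32 to 8.06), an interval that covers counting error only. Cre13.g580050 went from 2.74, 2.90 and 2.33 to 5.65, 5.78 and 5.55. Cre17.g700300, described as a putative microtubule-severing ATPase and not as a proteasome subunit, went from 1.32, 0.792 and 0.832 to 1.98, 2.37 and 1.99. The single autophagy member, g3389, has the domain of Apg7, the E1-like enzyme that activates ubiquitin-like proteins for the growth of autophagosomes. It was lower, at 7.02, 5.28 and 7.07 without UV-B and 2.73, 2.89 and 2.98 with UV-B, a log2 fold change of -0.94 ± 0.17.

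Metalloproteases, which cut with the help of a metal ion, were the largest class, with 13 genes. The pair described as FtsH-like membrane ATPase/metalloprotease genes took the most reads of any member. Cre17.g720050 had 1021, 1146 and 1172 without UV-B and 2837, 2976 and 2554 with UV-B, a ratio of means of 2.51 and a log2 fold change of 1.32 ± 0.08. Cre12.g485800 had 780.0, 857 and 886 and 2555, 2833 and 2360, a ratio of 3.07 and a log2 fold change of 1.62 ± 0.08. In both genes every UV-B culture lay above every no UV-B culture. Separate groups held for 65 of 65 members and 63.2% of the genes tested. The sources used here do not give how reads that match more than 1 gene were counted, so the division of reads between related genes such as these is uncertain. Cre09.g393950, with the same ATPase domain names and a second place in the proteasome category, went from 9.76, 12.1 and 11.7 to 36.1, 37.5 and 35.1, a log2 fold change of 1.61 ± 0.10.

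Cre01.g020900, described as a presequence protease, the enzyme that degrades targeting peptides after import into organelles, had 89.2, 92.5 and 87.6 without UV-B and 279.9, 275 and 251 with it. The 3 values of each group lie within a narrow band, and the log2 fold change was 1.57 ± 0.07. Intramembrane metalloproteases cut proteins within a membrane, and the 2 genes with this description went in opposite directions. Cre17.g730100 had 47.9, 47.8 and 53.2 without UV-B and 3.86, 4.74 and 6.21 with UV-B, which was 10.0-fold lower and, at a log2 fold change of -3.11 ± 0.12, the largest fall of the 65 genes. For g2871 the values were 31.5, 33.5 and 30.3 and then 73.0, 69.9 and 67.5, a log2 fold change of 1.12 ± 0.08. Cre12.g508500, with the M20 domain of amidohydrolases such as carboxypeptidases, was lower under UV-B, at 104, 94.6 and 96.6 and 33.1, 36.5 and 37.3. Its M20 domain names include ArgE, an enzyme of arginine synthesis and not of proteolysis.

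The remaining members of the class had fewer reads. Cre17.g712350, described as similar to CAAX amino terminal proteases, membrane enzymes first known for trimming prenylated proteins, went from 9.54, 8.18 and 7.73 to 18.3, 16.2 and 18.8. The M1 aminopeptidase gene g1367 went from 1.54, 1.45 and 2.00 to 4.43, 5.57 and 5.05. Cre12.g532314, with no domain names, had 2.08, 3.17 and 1.41 and 6.60, 5.05 and 5.63, and Cre07.g342920, with the M24 domain of prolidases, 1.86, 1.72 and 1.91 and 3.39, 4.44 and 3.89. All 4 of these genes were higher under UV-B. Their groups did not overlap, which held for 65 of 65 members and 63.2% of the genes tested. Lower were g14687, with the M10 domain of matrix metalloproteases, at 2.96, 3.17 and 3.91 and 1.60, 1.65 and 1.82, and Cre16.g647500. The description of Cre16.g647500 is that of nucleoredoxin, a thiol oxidoreductase, which goes against its place among proteases. Its reads numbered 82 in all without UV-B and 16 with UV-B, a pooled ratio of no UV-B to UV-B of 5.78 (exact 95% interval 3.35 to 10.6).

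**Figure D3:**
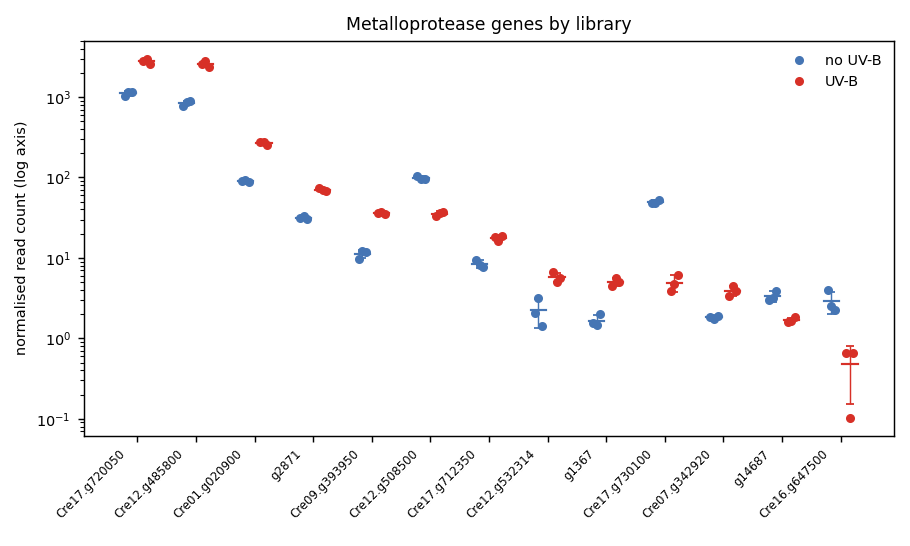
Normalised read count (vertical log axis) of the 13 metalloprotease genes in each library, ordered by their mean under UV-B, with 1 point per culture and bars for the mean ± SD of 3 cultures per group. The FtsH-like pair at the left reaches 2360 to 2976 under UV-B, and Cre17.g730100 drops from near 50 to between 3.86 and 6.21.

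Among the 6 serine proteases, which cut with an active-site serine, the 3 higher genes have annotations of bacterial descent. Cre10.g444550, described as a signal peptide peptidase with the SppA domain, had 13.3, 16.9 and 17.6 without UV-B and 112, 117 and 104 with UV-B. Its groups were separate, as in 65 of 65 members and 63.2% of the genes tested. The log2 fold change of 2.73 ± 0.09 was the largest rise of the 65 genes. SppA of cyanobacteria and the plant plastid enzyme cleave membrane-bound peptides and proteins and respond to strong light. Cre10.g420550, with the domain of C-terminal processing peptidases, went from 9.21, 11.3 and 11.1 to 33.3, 32.5 and 34.4, a log2 fold change of 1.58 ± 0.11. Peptidases of this family trim the D1 precursor in plastids. A second gene of the family, Cre06.g265850, was lower, with 2.30, 1.58 and 2.33 and then 1.04, 0.619 and 0.911. It had 61 and 28 reads in the respective groups, a pooled ratio of no UV-B to UV-B of 2.46 (exact 95% interval 1.55 to 3.99).

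The DegP-type protease gene Cre02.g092000, of a family that degrades damaged proteins in bacteria and in organelles, was higher from a very low level. Its values were 0.768, 0.792 and 0.416 without UV-B and 4.34, 3.30 and 2.82 with UV-B. It had 18 and 112 reads in these groups, a pooled ratio of 5.52 (exact 95% interval 3.34 to 9.65). The lower serine proteases were Cre01.g037000, with the S10 domain of serine carboxypeptidases, and Cre17.g697650. Cre01.g037000 went from 11.4, 9.37 and 9.56 to 4.43, 5.47 and 5.05. Prolyl oligopeptidases of family S9, which cut short peptides after proline, appear under 3 categories of the table. Cre12.g542100, filed as a prolyl protease, went from 11.6, 9.24 and 12.9 to 40.0, 41.6 and 33.5, a log2 fold change of 1.69 ± 0.11. Cre12.g541800, filed without a subclass, went from 8.67, 9.10 and 8.48 to 16.8, 20.8 and 15.8, and Cre17.g697650 went down from 4.28, 3.96 and 2.91 to 0.848, 1.96 and 1.82. The S9 family was thus divided by gene, and reads shared between its members, if any, could not be traced. The single gene filed as an alanine protease, g4713, has no domain names and went from 21.4, 21.1 and 23.0 to 48.0, 52.3 and 39.3, a log2 fold change of 1.05 ± 0.10.

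Subtilases, serine proteases related to bacterial subtilisin, were lower in 3 of 4 cases. Cre01.g049950, the member with the most reads after the FtsH-like pair, had 515, 499 and 527 without UV-B and 232, 208 and 191 with it, a mean 2.45-fold lower and a log2 fold change of -1.29 ± 0.07. Cre03.g170300 had 15.6, 12.4 and 13.6 and 6.79, 6.29 and 6.46. The groups were apart in both of these genes, as in 65 of 65 members and 63.2% of the genes tested. The values of g3939 were close to the floor of the data, at 1.32, 1.72 and 2.99 and 0.942, 1.13 and 0.663, and the gap between the groups was smaller than the spread without UV-B. Cre05.g242700 went up, from 2.41, 2.24 and 1.41 to 5.09, 3.92 and 3.56.

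Cysteine proteases cut with an active-site cysteine. All 9 genes filed under this name were lower under UV-B, and their summed level went from 386 ± 11.5 to 156 ± 5.70 (mean ± SD, n = 3 per group). Cre10.g456900, whose domain name is not that of a protease, supplied 80.3 ± 2.60 and 33.2 ± 1.56 of these sums. The gene with the most reads was Cre12.g483550, described as vacuolar processing enzyme, a legumain-type protease that matures other vacuolar proteins. It had 198, 193 and 179 without UV-B and 78.8, 83.9 and 79.3 with UV-B, a log2 fold change of -1.22 ± 0.07. Papain-like genes made up 3 of the 9. The cysteine endopeptidase gene g8339 had 83.9, 83.3 and 83 and 28.0, 27.1 and 38.7, with nearly equal values in the no UV-B cultures and a log2 fold change of -1.41 ± 0.10. Cre16.g659750 had 3.51, 4.22 and 4.08 and 0.565, 0.928 and 0.828, and Cre17.g697300 5.48, 5.67 and 7.24 and 2.36, 2.78 and 3.48. The 3 papain-like genes differed in the size of the step, with means 2.67-fold lower in g8339, 5.09-fold in Cre16.g659750 and 2.13-fold in Cre17.g697300.

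Calpains are calcium-activated cysteine proteases of the cytosol. Cre02.g112300, described as a calpain, had 3.18, 1.72 and 3.83 without UV-B and 0.471, 0.516 and 0.663 with it. The calpain-domain gene g5561 had 12.0, 9.90 and 10.1 and 4.43, 5.16 and 4.22. In both the groups were apart, as in 65 of 65 members and 63.2% of the genes tested. Cre02.g112300 had only 18 reads over the 3 UV-B libraries. The OTU-domain genes, of a family that cleaves ubiquitin chains, were g9446, with 6.91, 6.20 and 7.82 and 1.13, 1.34 and 2.73, and Cre12.g541100, with 2.41, 2.77 and 1.66 and 0.283, 0.619 and 0.497. They therefore went the opposite way to the 2 genes classed as ubiquitin proteases. Cre10.g456900 is filed in this class, but its domain name is 5_nucleotid, that of nucleotidases, and not of a protease. It had 81.7, 81.8 and 77.3 and 34.9, 32.8 and 31.8, a log2 fold change of -1.25 ± 0.08.

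**Figure D4:**
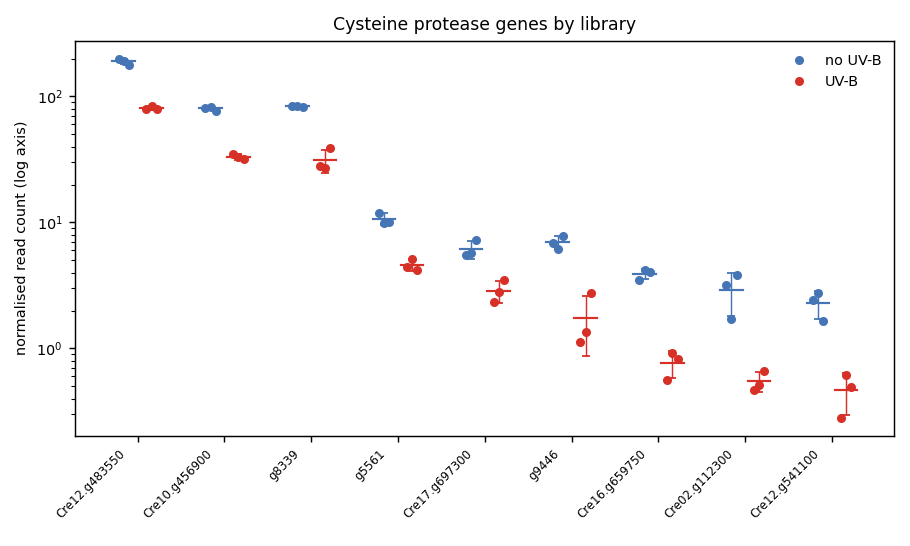
Normalised read count (vertical log axis) of the 9 genes filed as cysteine proteases in each library, ordered by their mean under UV-B, with 1 point per culture and bars for the mean ± SD of 3 cultures per group. Each gene sits lower under UV-B, from 179 to 198 down to 78.8 to 83.9 in Cre12.g483550, the gene with the highest values.

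Of the 11 members without a named subclass, 7 were higher and 4 lower. Peptidases that take short peptides or their ends apart were found on both sides. Cre13.g572900, described as oligopeptidase A of family M3, had 24.4, 28.8 and 24.4 without UV-B and 116, 117 and 102 with UV-B, a log2 fold change of 2.07 ± 0.08. Cre01.g007700, with the M17 domain of leucine aminopeptidases, had 54.4, 66.2 and 70.7 and 193, 212 and 179, a log2 fold change of 1.60 ± 0.08. Cre04.g213250, with the PepN aminopeptidase domain, had 27.6, 28.8 and 30.0 and 66.0, 63.5 and 64.1. The UV-B means of these 3 genes were 2.24 to 4.32 times those without UV-B, while Cre02.g108100, of another aminopeptidase family, was lower. Cre02.g141550 and Cre03.g193700, with neither description nor domain names, were higher as well. The former had 49.8, 57.7 and 55.8 and 146, 145 and 129, and the latter 7.79, 6.33 and 7.73 and 22.9, 19.8 and 17.3.

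The largest fall among them was in Cre12.g496150, which carries only a domain named SpoIIIAA, after an ATPase of bacterial sporulation. It had 184, 169 and 169.7 without UV-B and 36.5, 34.2 and 33.6 with UV-B, a mean 5.01-fold lower and a log2 fold change of -2.29 ± 0.07. The mitochondrial inner membrane signal peptidase gene Cre01.g027100, whose product removes sorting signals in mitochondria, went from 14.9, 19.8 and 13.9 to 4.90, 6.60 and 7.29. Cre02.g108100, with the M28 domain of aminopeptidases, went from 6.80, 4.22 and 5.49 to 2.07, 3.09 and 2.32. The groups were apart in each of these 3 genes, as in 65 of 65 members and 63.2% of the genes tested. The remaining pair is formed by direct neighbours in the genome. Cre07.g332550, described as a eukaryotic signal peptide peptidase, an aspartic protease that cuts within membranes, was higher, with 4.50, 4.88 and 6.32 and 11.8, 8.56 and 12.4. Next to it, Cre07.g332600 was lower, with 8.67, 8.05 and 8.07 and 3.68, 4.02 and 4.31.

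The FtsH-like pair held somewhat fewer reads than the other 63 members together without UV-B and more than they did with UV-B. The 65 genes took 0.387% ± 0.0280 of the reads of the table without UV-B and 0.766% ± 0.0318 with UV-B (mean ± SD, n = 3 per group), and the pair took 0.189% ± 0.0203 and 0.557% ± 0.0316. The pair's share of the members' reads was 48.7% ± 1.79 without UV-B and 72.7% ± 1.10 with UV-B, and the groups did not overlap. The summed normalised level of all 65 genes was 4013 ± 133 and 7388 ± 512, a ratio of 1.84. Without the FtsH-like pair the sum of the other 63 genes was 2059 ± 2.81 and 2017 ± 75.0, a ratio of 0.979. This ratio became 1.05 with libraries scaled to an equal total and 1.00 without UV-B replicate 3, so no direction is given for it. By class, the summed level was 2.58 times as high under UV-B in the metalloproteases, 3.60 times in the serine proteases and 1.27 times in the ubiquitin ligases, while the UV-B sum was 0.404 of the no UV-B sum in the genes filed as cysteine proteases and 0.417 in the subtilases. Without the FtsH-like pair the ratio was 1.49 in the metalloproteases and 0.824 over all genes filed under a protease class. Cre10.g444550 supplied 15.9 and 111 of the serine protease sums of 43.0 without UV-B and 155 with it. Cre01.g049950 supplied 514 and 210 of the subtilase sums of 532 and 222. The ubiquitin ligase sum was higher although 5 of its 8 genes were lower, and Cre01.g053850 and Cre02.g079750 were its largest parts under UV-B. These are sums of reads without correction for length and follow the members with the most reads.

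Low values limit part of the list. Means were under 10 in both groups for 27 of the 65 genes, and the members had from 1 to 30840 reads in a library, with a median of 84.5. On the log2(value + 1) scale 24 genes were at least 2-fold higher and 21 at least 2-fold lower, where 6.57% and 6.48% of the genes tested were, and the remaining 20 members were under 2-fold on this scale. The log2 fold changes of the authors' deposited table were larger in absolute size for the low genes. The median absolute difference between the authors' deposited table and this scale was 0.364 for the 27 low genes and 0.0424 for the other 38. With edgeR on the recovered reads the median difference from the authors' deposited table was 0.00559. Nearest to the threshold of that table were Cre12.g541800 at 1.02 and Cre07.g332550 at 1.04 among induced genes, and g14687 at -1.003 and Cre01.g037000 at -1.02 among repressed genes. Genes just outside the threshold carry no annotation in the files, so none can be named as a protein degradation gene.

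**Figure D5:**
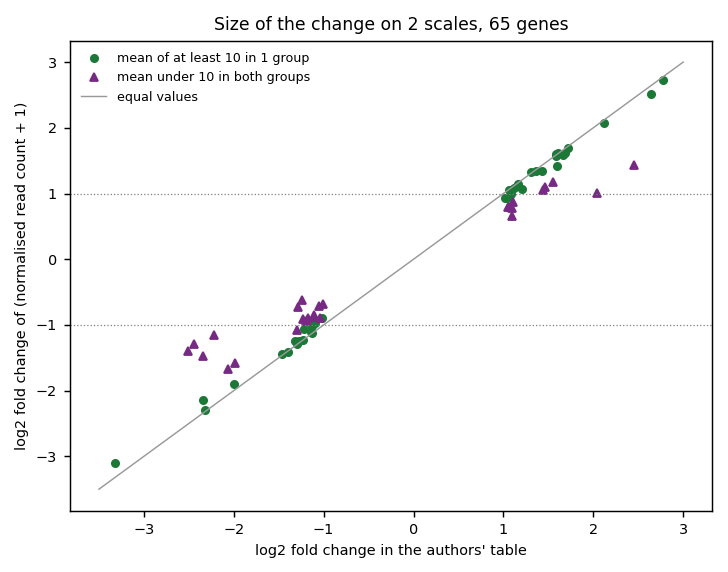
Log2 fold change of each of the 65 genes on the log2(value + 1) scale (vertical axis) against the log2 fold change in the authors' deposited table (horizontal axis), with triangles for the 27 genes with means under 10 in both groups. The triangles lie nearer to 0 than the line of equal values, and circles lie close to it.

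The spread of the members between cultures was close to that of all genes tested, members included, on the same side of a mean value of 10. For the 33 members with a mean of at least 10 over all libraries the median SD of log2(value + 1) between cultures was 0.0952 without UV-B and 0.0986 with UV-B, beside 0.0917 and 0.105 over the 6713 genes tested at that level. For the 32 members under 10 it was 0.178 and 0.168, beside 0.182 and 0.172 over 6702 genes. The libraries held 7868534 to 11972794 reads in the genes of the table.

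In the gene order of RefSeq assembly Chlamydomonas_reinhardtii_v5.5, 54 of the 65 identifiers were found, and 5 pairs of members lay within 10 positions of each other. The only directly adjacent pair was Cre07.g332550 and Cre07.g332600, which went in opposite directions. Cre03.g170150, filed under RING and annotated as a copine, and the subtilase gene Cre03.g170300, with 2 genes between them, were both lower. The cysteine protease gene Cre17.g697300 and the serine protease gene Cre17.g697650, 8 genes apart, were both lower, and the family S9 genes Cre12.g542100 and Cre12.g541800, with 6 genes between, were both higher. The fifth pair, Cre04.g213800 and Cre04.g213250, went in opposite directions. Of the 66 genes directly beside a member that were not members themselves and were tested, 40 (60.6%) passed an adjusted p of 0.05 by limma, 20 of them higher and 20 lower. That share is close to the 59.0% of all genes tested.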

How the data were processed

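Per the submitters' processing notes the authors used TopHat2, HTSeq 0.5.3p9 and edgeR 3.4.2; the sources used here do not give the genome build, gene models or strand setting. Per the labels' protocols the library kit keeps strand. The authors deposited a normalised signal per gene (reads scaled by effective library size) and, for the changed genes, a table that gives the log2 change, the p-value, its adjusted form and the mean level as log2 CPM. Members and lists were chosen with earlier results of these data known. Groups came from the sample titles, and columns were matched through the description labels.

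The 13415 genes at 1 or more in 3 or more libraries were fitted on log2(value + 1) by limma 3.58.1 (trended prior variance, R 4.3.3), with 3 UV-B and 3 no UV-B libraries and p-values adjusted by Benjamini-Hochberg over all genes. The fit was also run on simulated data with far fewer changed genes than were called here. That run gives no measure of false calls in these data. Deposited values were whole multiples of the value of 1 read to within 0.01 reads (100% of values in each library), although no gene of no UV-B replicate 3 has exactly 1 read and its step comes from the spacing. On the recovered reads edgeR 4.0.16 called 7938 genes (59.2%) and limma, on the deposited values, 7920 (59.0%). Exact 95% intervals of read ratios are conditional binomial and cover counting error only.

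Classes follow the first category term. Named genes were up to 4 rises and 4 falls per class (6 for ligases and members without a subclass), every described member, the one with the most reads per class and those nearest the threshold, 58 of 65; the other 7 were added to account for every member. No protein or promoter sequence was used here.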

Additional observations from a re-analysis of the deposited data

How the results depend on the processing

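No log2 fold change of the 58 members named by the rule reversed in 1028 values over 18 settings, but 149 of them moved by more than the spread between replicates, as in Cre17.g726150, which ran from 0.35 to 2.03. The groups of 65 of 65 members were also separate under each of the other 3 scalings. The members were chosen for a change in these same libraries, so separate groups and kept directions were largely fixed in advance. Directions were 32 higher and 33 lower in every fit that held 65 members. A minimum value of 5 left 46 members, 24 higher and 22 lower, with 3 ubiquitin ligases, 2 metalloproteases and 1 serine protease lower and 1 gene of the proteasome category higher. Membership also by description gave 33 higher and 37 lower. Counts of members changed at least 2-fold follow the treatment of low values: falls numbered 32 with a pseudocount of 0.1, 32 with edgeR, 32 with DESeq2 and 10 with a pseudocount of 5, against 21, and rises numbered 32, 32, 32 and 15 under the same settings, against 24. Without 1 library at a time falls ran from 19 to 23 and rises from 22 to 25.

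Scaling libraries to an equal total moved the median log2 fold change of all genes tested from 0.00037 to 0.09 and the ratio of summed levels to 1.36 in ubiquitin ligases, 1.64 in members without a subclass, 0.796 in the other ubiquitin, proteasome and autophagy genes, 0.436 in cysteine proteases and 1.05 in the members without the FtsH-like pair, the last a change of direction. The last ratio ran from 0.967 to 1.00 without 1 library at a time. With the replicate block 8102 genes were called in place of 7920, with members still 32 higher and 33 lower. The labels give no meaning to the shared numbers: deviations of same-numbered cultures from their group means correlated at 0.0446, 0.0244 and 0.120, and UV-B replicate 2 correlated best with no UV-B replicate 1, at 0.0601. Counting error limits members with few reads, of which 9 had fewer than 30 reads in a group.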

Other observations

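Genes of proteolysis that the table files elsewhere were also listed. A search of descriptions, domain and category names for proteolysis words found 36 further genes, 12 of them ABC transporters that match by a domain name and were left out. Of the other 24, some of which share only a word with proteolysis, 8 were higher and 16 lower under UV-B. They are listed because they changed and were picked after their values were seen, so no test is given. The M11 family holds gametolysin, the metalloprotease with which Chlamydomonas gametes dissolve their cell walls. Of its 8 genes in the table, 1 was higher and 7 were lower, with log2 fold changes from -1.45 to 1.12. The higher one, Cre01.g025200, described as a metalloproteinase of the VMP family, went from 9.73 ± 1.03 to 22.4 ± 3.12 (mean ± SD, n = 3 per group). The other gene with that description, Cre07.g353600, went from 8.61 ± 0.521 to 2.52 ± 0.240. A gene described as matrix-metalloproteinase-like, with no domain name, Cre16.g694200, was also lower, with 5.24 ± 0.722 and 1.69 ± 0.506.

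Cre16.g667450, a Tubby-like gene whose second category is that of F-box ligases, was lower, from 111 ± 6.57 to 37.3 ± 1.41. The 2 members filed with F-box proteins were higher, of which Cre02.g079750 has no F-box domain name. With RING as its last category, g6281 was higher, from 1.09 ± 0.0948 to 2.72 ± 0.424, where the 5 members filed under RING were lower. Cre07.g328600, with ubiquitin as its second category, was lower, from 9.08 ± 1.26 to 2.14 ± 0.394. A rhomboid-like protease gene, Cre12.g526700, of a family that cuts within membranes, went from 9.25 ± 0.448 to 3.14 ± 1.09. The gene for separase, Cre01.g029200, which opens the cohesin ring when chromosomes part, went from 2.34 ± 0.0879 to 1.15 ± 0.355. Cre17.g734900, with the M32 domain of carboxypeptidases, was higher, from 30.9 ± 3.05 to 109 ± 5.94. The Clp ATPases of the Hsp100 family, which unfold proteins, include 2 genes described as ClpB that moved in opposite directions, Cre02.g091400 from 7.70 ± 1.12 to 19.1 ± 2.68 and g11575 from 33.2 ± 1.08 to 2.79 ± 0.316. The gene described as ClpD, Cre10.g465550, was lower, from 178 ± 5.88 to 17.8 ± 2.55. A further gene filed with the Hsp100 chaperones, g13120, has no description and was higher, from 5.17 ± 1.10 to 15.8 ± 2.23.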
